A study of Mus musculus with 6 samples.

Results

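RNA was sequenced from wild-type C57BL/6 mouse cortex to profile messenger and long non-coding RNA after traumatic brain injury (TBI). There were 3 control libraries of normal cortex and 3 libraries of cortex around the injury site at 24 h. C57BL/6 is an inbred laboratory strain, both groups carried no engineered allele by their labels, and the sources used here do not give age, sex, the way the injury was made or whether each library was 1 animal. Tests across libraries therefore measure only the spread between these samples, which may be technical. The genes described are 9 members of the STAT and SOCS families, 5 STAT transcription factors (Stat2, Stat3, Stat4, Stat5a and Stat6) and 4 SOCS-family inhibitors (Socs1, Socs2, Socs3 and Cish). They were taken by symbol from the 23473 named rows of a gene table that held 56826 rows in all, and all 9 had enough counts to be tested.

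Cytokine receptors without a kinase of their own use the JAK kinases, which phosphorylate STAT proteins. Phosphorylated STATs pair, enter the nucleus and switch on target genes, among them the SOCS genes, whose products bind the receptors or the JAKs and shut the signal down. In injured brain the pathway is known above all for STAT3 in reactive astrocytes and for interferon and cytokine responses of microglia and infiltrating blood cells. The libraries measured RNA of these genes, and phosphorylation of STAT proteins was not measured.

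Total counts over gene rows ran from 67252519 to 83929814 per library. The summed level of 9 neuron markers was 1607 to 1673 RPKM (reads per kilobase of row length and per library total) in control. It was 1300.2 to 1421 in TBI, with 4 markers lower and 0 higher. These markers show that the tissue held neurons and cannot tell cortex from other brain regions. Summed infiltrating monocyte markers went from 8.01 to 8.56 RPKM in control to 65.3 to 87.7 in TBI (9 of 9 called higher). Summed neutrophil markers went from 1.49 to 3.55 to 37.2 to 109 (6 of 7 tested called higher). Only 7 of the 9 neutrophil markers present had enough counts to test. Markers low in control could pass the count filter through their TBI counts alone, so nothing is read from these counts of calls. Of 8 astrocyte markers 4 were called higher and 2 lower, and their summed level ran from 623 to 673 RPKM over control libraries and from 734 to 781 RPKM over TBI libraries. Of 7 homeostatic microglia markers 2 were higher and 4 lower, with summed levels of 72.3 to 76.9 and 65.1 to 69.8 RPKM. For comparison, 15.4% of all named rows tested were called higher and 10.7% lower. The neuron, astrocyte and microglia counts of calls were not tested against these shares. In bulk tissue, fewer cells of a type and less RNA per cell cannot be told apart, and the part of these cell types in the results below was not tested.

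Of the 9 genes, 6 were called higher in TBI (Stat2, Stat3, Stat5a, Stat6, Socs1 and Socs3), 0 were called lower and 3 were not called (Stat4, Socs2 and Cish). A call is an adjusted p under 0.05 in edgeR's quasi-likelihood test with Benjamini-Hochberg adjustment over all 42762 gene rows tested. By that rule 15.4% of the 16941 named gene rows tested were higher and 10.7% lower; over all rows, FANTOM3 cDNA clones included, 9.12% were higher and 8.36% lower, 17.5% in all. The 3 TBI values lay above all 3 control values for 8 of the 9 genes, against 32.9% of named rows, with Stat4 the exception. The median log2 fold change of the 9 genes was 0.84, against 0.017 over named rows. Fitted fold changes are adjusted for library composition and lie slightly below ratios of mean RPKM: over named rows the median log2 RPKM ratio was 0.096 where the median fitted value was 0.016.

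**Figure D1:**
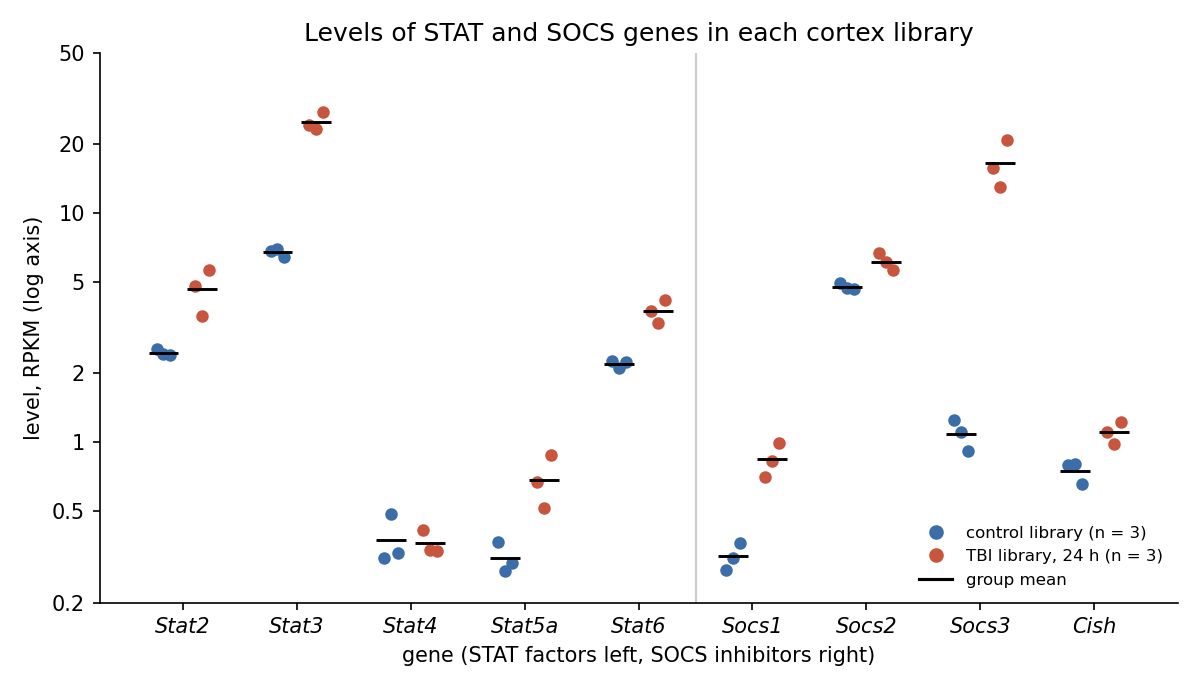
Level of each STAT and SOCS gene in RPKM (log axis) in the 3 control and 3 TBI libraries, each point 1 library and each bar the group mean. Socs3 went from 0.914 to 1.25 RPKM in control to 13.03 to 20.9 in TBI, and Stat4 is the gene whose groups overlap.

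The gene that changed most was Socs3, the feedback inhibitor of signalling through gp130, the shared receptor of interleukin 6 family cytokines. Its row lies on the minus strand of chromosome 11 (117966079 to 117970341, mm10 coordinates as deposited). Levels were 1.25, 1.11 and 0.914 RPKM in the control libraries and 15.7, 13.03 and 20.9 RPKM in the TBI libraries, from 209 to 229 counts and 2561 to 3917 counts. Every TBI library lay far above every control library. The rise was 14.4-fold, or 3.84 on the log2 scale with an SE of 0.17 (adjusted p = 4.38e-08 in edgeR). Among the 16941 named rows tested, 148 were called higher with a log2 fold change at least as large, Socs3 included.

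Stat3, the transcription factor activated by interleukin 6 family cytokines, had the second largest change of the 9 genes. It lies on the same chromosome and strand (100886810 to 100939511). Levels were 6.81, 6.99 and 6.43 RPKM in control and 24.2, 23.2 and 27.6 RPKM in TBI, with little spread inside either group. The log2 fold change was 1.81 ± 0.08 (SE; edgeR adjusted p = 4.84e-08), or 3.51-fold. Stat3 held the highest level of the 9 genes in both groups.

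Both genes made up a larger share of their families in each TBI library than in any control library. Stat3 made up 54.9% to 56.9% of the summed RPKM of the 5 STAT genes in control libraries and 71.5% to 75.0% in TBI libraries. Socs3 made up 13.8% to 17.2% of the summed RPKM of the 4 SOCS-family genes in control and 62.1% to 72.7% in TBI. Socs3 stood at 0.142 to 0.184 of the Stat3 level in control and at 0.561 to 0.757 in TBI. These shares and ratios are descriptions and were not tested.

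**Figure D2:**
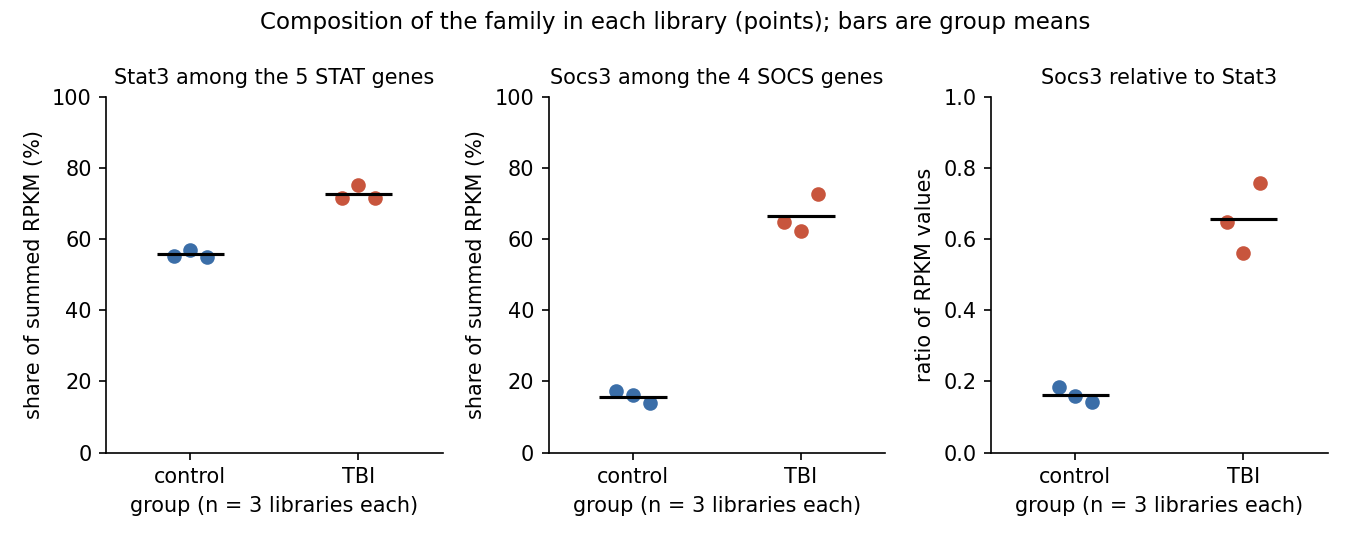
Share of Stat3 in the summed RPKM of the 5 STAT genes (left), share of Socs3 in that of the 4 SOCS-family genes (middle) and ratio of Socs3 to Stat3 RPKM (right), each point 1 library and each bar the mean of 3 libraries. Socs3 was 13.8% to 17.2% of its group in control and 62.1% to 72.7% in TBI.

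The other SOCS gene called was Socs1, an inhibitor of interferon signalling that binds JAK kinases, on the minus strand of chromosome 16 (10783808 to 10785536). It was low throughout, with 25, 31 and 41 counts in control and 67, 80 and 92 in TBI. In level this was 0.278, 0.312 and 0.365 RPKM against 0.703, 0.828 and 0.999 RPKM, with no overlap. The rise was 1.32 on the log2 scale with an SE of 0.25 (adjusted p = 0.00267 in edgeR).

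Socs2, which restrains growth hormone signalling, lay close to the threshold and was not called. Levels on chromosome 10 (95385364 to 95416857, minus strand) were 4.94, 4.71 and 4.67 RPKM in control and 6.67, 6.14 and 5.63 in TBI. The groups do not overlap, but the log2 fold change was 0.29 ± 0.09 (SE; edgeR adjusted p = 0.0538). The call changed with settings: edgeR called Socs2 without TBI replicate 3 (adjusted p = 0.0429), while without TBI replicate 1 the adjusted p was 0.219, in a range of 0.0245 to 0.219 over 15 alternatives. A FANTOM3 clone on the same strand inside the Socs2 span (95408353 to 95412199) had 0.36 on the log2 scale with an SE of 0.10 (adjusted p = 0.0309 in edgeR), and a further clone (95387667 to 95392967) had 0.02 ± 0.17 (SE; edgeR adjusted p = 0.968). Reads in these clones may also be counted in the Socs2 row.

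Cish, an inhibitor that is a known target of STAT5 signalling, was not called. Levels on chromosome 9 (107296689 to 107301962, plus strand) were 0.798, 0.805 and 0.656 RPKM in control and 1.11, 0.981 and 1.22 in TBI, from 116 to 129 counts against 153 to 182. All TBI values lay above the control values, with 0.48 on the log2 scale with an SE of 0.17 (adjusted p = 0.0711 in edgeR). None of the 15 alternatives called Cish.

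Stat2, which forms with IRF9 the complex that drives type I interferon responses, rose in all TBI libraries. Levels on chromosome 10 (128270559 to 128292852, plus strand) were 2.56, 2.43 and 2.41 RPKM in control and 4.79, 3.55 and 5.64 in TBI. The log2 fold change was 0.84 ± 0.14 (SE; edgeR adjusted p = 0.00121). The TBI libraries varied more than the control libraries, with a ratio of highest to lowest of 1.59 in TBI and 1.06 in control. Irf9, the partner in that complex, went from 2.09 ± 0.112 to 7.77 ± 1.90 RPKM (here and elsewhere, ± after an RPKM is the SD over 3 libraries), and was called higher.

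Stat6, the factor activated by interleukins 4 and 13, rose with 0.69 on the log2 scale with an SE of 0.11 (adjusted p = 0.000709 in edgeR). Its levels were 2.25, 2.11 and 2.24 RPKM in control and 3.75, 3.33 and 4.17 RPKM in TBI, with no overlap. The row lies on the plus strand of chromosome 10 (127641910 to 127660987) and shares its last 70 bases with Nab2 on the opposite strand. Nab2 itself was at 6.70 ± 0.278 and 6.88 ± 0.540 RPKM and was not called.

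Stat5a, a factor of prolactin and other cytokine receptors, was a low-level gene whose counts were higher in each TBI library: 96, 79 and 97 counts in control against 185, 145 and 235 in TBI. In level this was 0.367, 0.274 and 0.297 RPKM against 0.668, 0.517 and 0.878, with no overlap. The log2 fold change was 1.06 ± 0.22 (SE; edgeR adjusted p = 0.00483), or 2.08-fold. The row (chromosome 11, 100859180 to 100885169, plus strand) ends 1640 bases from that of Stat3, which runs toward it on the opposite strand and was 36.4 times higher in TBI by mean RPKM. Stat5a also has a close paralog, so its value is uncertain where counting could split reads between copies. A FANTOM3 clone inside the gene on the same strand was not called (log2 fold change 0.80 ± 0.27 (SE), edgeR adjusted p = 0.0582).

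Stat4, the factor of interleukin 12 signalling in T and NK cells, did not pass the test. Levels on chromosome 1 (51987114 to 52107189, plus strand) were 0.314, 0.489 and 0.328 RPKM in control and 0.415, 0.339 and 0.336 in TBI, and the groups overlap. The log2 fold change was -0.13 ± 0.22 (SE; edgeR adjusted p = 0.765), and it was 0.08 without control replicate 2, which held the highest value. Of 16 T and NK cell markers only 5 had enough counts to test. The T cell receptor chains Cd3d, Cd3e and Cd3g had 0 to 5 counts per control library and 1 to 9 per TBI library.

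**Figure D3:**
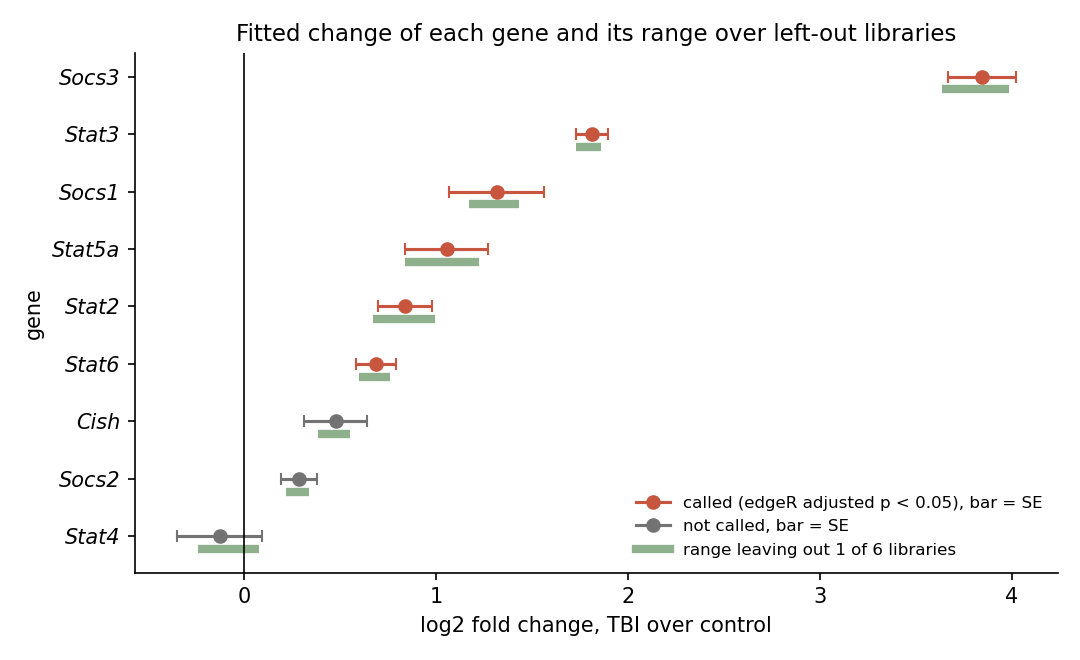
Fitted log2 fold change of TBI over control for each gene with its SE, in red where called, and under it the range when 1 of the 6 libraries was left out. Socs3 (3.84) and Stat3 (1.81) lie furthest from 0, and the range of Stat4 crosses it.

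Ordered by level per kilobase, the control libraries ran from Stat3 (6.74 ± 0.290 RPKM) through Socs2 (4.77 ± 0.148), Stat2 (2.46 ± 0.0822), Stat6 (2.20 ± 0.0795), Socs3 (1.09 ± 0.169) and Cish (0.753 ± 0.0842) to Stat4 (0.377 ± 0.0971), Socs1 (0.318 ± 0.0439) and Stat5a (0.313 ± 0.0484). The last 3 overlapped each other, and the other neighbours in this order did not overlap. In TBI the order was Stat3 (25.0 ± 2.31 RPKM), Socs3 (16.5 ± 4.01), Socs2 (6.15 ± 0.523), Stat2 (4.66 ± 1.05), Stat6 (3.75 ± 0.419), Cish (1.11 ± 0.122), Socs1 (0.843 ± 0.148), Stat5a (0.688 ± 0.182) and Stat4 (0.363 ± 0.0443). Here Socs2 overlapped Stat2, Stat2 overlapped Stat6, Cish overlapped Socs1 and Socs1 overlapped Stat5a, while Stat3 and Socs3 stood apart from each other and from the rest.

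The TBI libraries were not alike. TBI replicate 3 had the highest RPKM for 7 of the 9 genes and TBI replicate 2 the lowest for 6. The ratio of highest to lowest among TBI libraries was 1.70 for Stat5a, 1.604 for Socs3 and 1.59 for Stat2, and 1.19 for Stat3 and Socs2. Summed interferon-stimulated genes were at 110, 69.1 and 161 RPKM in TBI replicates 1 to 3 against 23.7 to 26.6 in control. Summed neutrophil markers were at 50.96, 37.2 and 109 RPKM and summed monocyte markers at 69.8, 65.3 and 87.7 in the same libraries. All of these sums had the same order over the TBI libraries, as did Stat2, Stat3, Stat5a, Stat6, Socs3 and Cish. The part of these gene lists in the spread of the 9 genes was not tested. Without TBI replicate 3 all 6 calls held, and Socs2 was called as well.

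**Figure D4:**
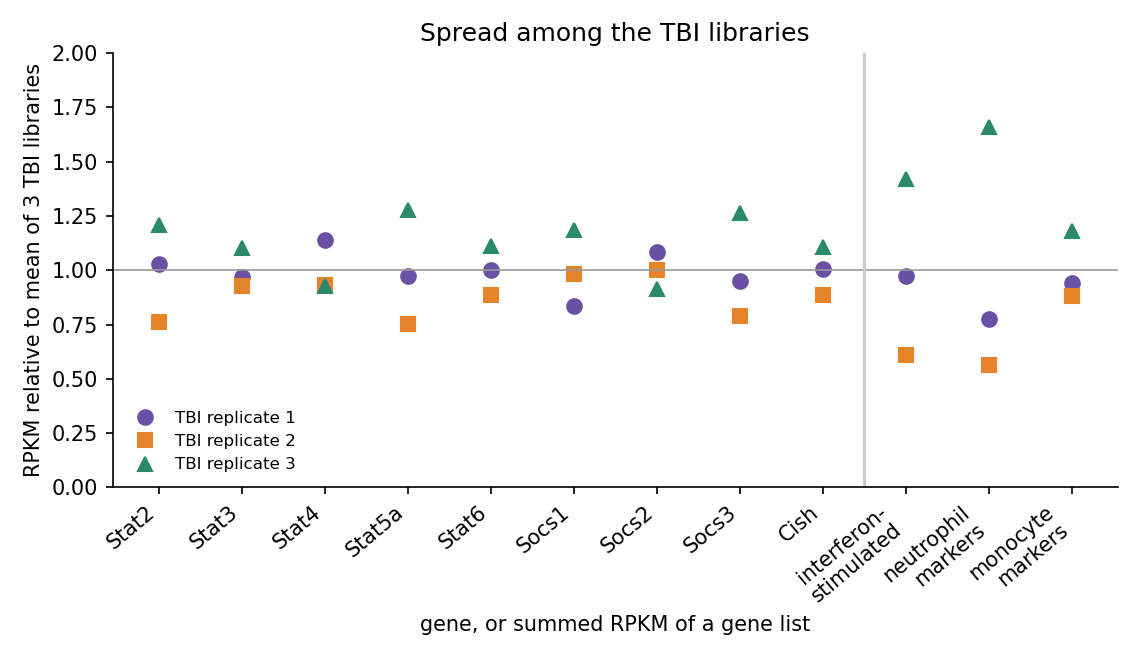
RPKM of each gene, and summed RPKM of 3 gene lists, in each TBI library relative to the mean of the 3 TBI libraries. TBI replicate 3 is highest for 7 of the 9 genes and for the 3 lists, where it reaches 1.66 times the mean for neutrophil markers.

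The transcript table does not separate isoforms. It held 16 RefSeq transcripts of the 9 genes, of which 14 were called higher and 0 lower (edgeR over 49090 transcript rows, 10.1% of them higher). For 9 of the 16 the counts equalled those of the gene row in all 6 libraries, and the others held 90.5% to 97.5% of them, so the rows share their reads and are not separate measurements. All 3 Stat3 transcripts had log2 fold changes of 1.80 to 1.81. The 4 Socs2 transcripts were called (log2 fold changes 0.28 to 0.29, edgeR adjusted p = 0.0402 to 0.0468) on nearly the reads with which the Socs2 gene row was not.

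RefSeq promoter windows of GRCm38.p6, which run from 250 bases before to 50 after an annotated start, were read for 8 of the 9 genes (10 windows), all but Socs2. Each was searched on both strands for TTCNNNGAA, the spacing bound by most STAT dimers, for TTC and GAA set 4 bases apart, the wider spacing that STAT6 prefers, and for GAAA and GAAA set 2 bases apart, the core of the element bound by the STAT2 complex. TTCNNNGAA was found for Socs3 and Cish, and 8.3% of all 32851 windows and 9.55% of all 27025 genes hold it. The wider TTC and GAA pair was found for Stat2 (6.95% of all windows, 8.01% of genes). The GAAA pair was found for Socs1, Stat2 and Stat4 (3.44% of windows, 3.99% of genes). The Stat4 match lies only in the window whose start is 21126 bases inside the deposited row. The stretches are shown because they hold these matches, in capitals, in the 2 called SOCS genes, in Stat2 and in Cish.
Socs3, minus strand, chr11:117969477-117969556: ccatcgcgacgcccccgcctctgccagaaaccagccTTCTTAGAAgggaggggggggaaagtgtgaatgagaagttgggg
Socs1, minus strand, chr16:10785567-10785646: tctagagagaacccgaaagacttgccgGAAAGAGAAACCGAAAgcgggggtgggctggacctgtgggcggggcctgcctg
Stat2, plus strand, chr10:128270258-128270337: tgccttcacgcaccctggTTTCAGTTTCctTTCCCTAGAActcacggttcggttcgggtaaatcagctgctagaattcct
Cish, plus strand, chr9:107296654-107296683: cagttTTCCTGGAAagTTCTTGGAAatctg
The Socs3 match, TTCTTAGAA, lies 154 to 146 bases before the RefSeq start, which is itself 975 bases inside the deposited row. In Socs1 the matches GAAAGAGAAA (83 to 74 bases before the start) and GAAACCGAAA (77 to 68) overlap. In Stat2 the interferon-type match reads on the opposite strand and is followed by TTCCCTAGAA. In Cish the matches TTCCTGGAA and TTCTTGGAA lie within the first 20 bases from the RefSeq start. That start is 30 bases before the deposited row, so both matches lie outside it. A match of letters is a description and not a bound site, and its absence from the Stat3, Stat5a and Stat6 windows concerns these windows alone.

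Upstream of the STATs, some ligands and receptor chains were called higher, and 1 of 4 JAK kinases was called. Of 25 listed cytokines and hormones, 8 were called higher, 6 were tested and not called, and 11 had too few counts to test. A ligand low in control could pass the count filter through its TBI counts alone, so nothing is read from that share. Clcf1, a gp130 cytokine, rose from 0.152 ± 0.0174 to 2.69 ± 0.615 RPKM and Il11, another, from 0.0988 ± 0.0126 to 1.55 ± 0.122. Il6 rose by 5.49 on the log2 scale, from 0.0321 ± 0.0383 RPKM in control to 1.62 ± 1.21 in TBI; its TBI libraries were at 0.943, 0.892 and 3.02 RPKM. The value was 4.67 with TBI replicate 3 left out and 6.79 with control replicate 2 left out. Csf3, the granulocyte growth factor, had control counts of 0, 2 and 0 against TBI counts of 27, 59 and 242, so that TBI replicate 3 held most of the 328. Scaled by library totals the ratio was 174, with an exact 95% interval of 47.8 to 1444 for counting error. The interval takes each count as an independent read and is too narrow if both mates of a pair were counted. The fitted log2 fold change of 7.14 was 5.75 with TBI replicate 3 left out and 9.79 with control replicate 2 left out.

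Of 31 receptor chains, 16 were higher and 0 lower, with a median log2 fold change of 0.58. Over named rows tested 15.4% were higher and 10.7% lower, with a median of 0.017. A chain low in control could pass the count filter through its TBI counts alone, so nothing is read from that share. Osmr, the oncostatin M receptor that signals through STAT3, rose from 1.002 ± 0.107 to 12.6 ± 1.07 RPKM (log2 fold change 3.58). Il4ra, the receptor chain upstream of STAT6, rose from 0.910 ± 0.114 to 6.53 ± 1.001 RPKM (2.76). Csf2rb and Csf3r, which signal through STAT5 and STAT3, had log2 fold changes of 3.93 and 2.03. Among the 4 JAK kinases only Jak3 was called, from 0.372 ± 0.0659 to 0.785 ± 0.0640 RPKM; it is named because it was the only one, after its value was seen. Jak1 and Jak2 had log2 fold changes of 0.12 and 0.11 (edgeR adjusted p = 0.351 and 0.359).

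Of 14 other inhibitors of the pathway tested, 2 were higher and 3 lower, with a median log2 fold change of 0.064. Of all named rows tested 15.4% were higher and 10.7% lower, so nothing particular to these inhibitors is read from the counts. The higher ones were the phosphatases Ptprc, which marks leukocytes (0.543 ± 0.0148 to 2.97 ± 1.005 RPKM), and Ptpn6, of blood cells (0.747 ± 0.0479 to 3.08 ± 0.355). Both SOCS-family genes among those called were lower, Socs7 with a log2 fold change of -0.43 and Socs5 with -0.32 (edgeR adjusted p = 0.00703 and 0.0106). The third was Pias1, named after its value was seen, at -0.28 (edgeR adjusted p = 0.0215), with adjusted p-values of 0.0526 to 0.0766 when TBI replicate 1, TBI replicate 3, control replicate 1 or control replicate 3 was left out.

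Known targets of the STAT2 complex and of STAT3 were mostly called higher, where 15.4% of named rows tested were higher and 10.7% lower. These lists were chosen with earlier results of these data known. Genes low in control could also pass the count filter through their TBI counts. The counts of calls are therefore a description and not independent support. All 18 interferon-stimulated genes listed as targets of the STAT2 complex were higher, with a median log2 fold change of 1.99, and 15 to 18 of them were called over the alternatives. Ifitm3, an antiviral membrane protein, rose from 6.15 ± 0.0719 to 40.7 ± 12.4 RPKM, and Usp18, which dampens interferon signalling, from 0.451 ± 0.0407 to 2.42 ± 1.43. Oas1a and Oasl2, of the oligoadenylate synthetase family, had log2 fold changes of 2.59 and 2.42, and members of that family share similar sequence. Of 17 STAT3 targets 13 were higher and 0 lower (median 1.86), with log2 fold changes of 5.49 for Timp1, 4.97 for Serpina3n and 4.63 for Bcl3. Lcn2 had 6.91, which became 6.21 without TBI replicate 3. Gfap is in both this list and the astrocyte list, and Pim1 and Ccnd1 are in both this list and that of STAT5 targets.

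Targets listed for Stat6, Stat5a and Stat4 included some called genes, and the lists were not compared with a test. Of 9 STAT6 targets tested 3 were higher and 0 lower: Arg1, also in the monocyte list, rose from 0.137 ± 0.0630 to 11.4 ± 0.296 RPKM, Mrc1 from 1.35 ± 0.102 to 2.46 ± 0.288, and Ccl22, named after its value was seen, from 0.0417 ± 0.0360 to 0.190 ± 0.0101. Of 8 STAT5 targets 3 were higher and 0 lower: Pim1 with a log2 fold change of 1.59, Ccnd1 with 1.02 and Osm, named after its value was seen, with 3.16. Osm is also in the ligand list, and its value was 2.48 with TBI replicate 3 left out. Osm, with 4, 8 and 13 counts in control, and Ccl22, with 10, 4 and 2, passed the count filter through their TBI counts. Of all named rows tested 15.4% were higher and 10.7% lower. Because of such genes, nothing is read from the share of called genes in these short lists. Ccl22 was not called by edgeR with TBI replicate 1, control replicate 2 or control replicate 3 left out (adjusted p = 0.0616, 0.0503 and 0.0676), and its log2 fold change of 2.14 was 3.05 without control replicate 1. Of the 5 STAT4 targets 2 had too few counts to test. Il18rap, the one called and named after its value was seen, had 1, 5 and 2 counts in control and 48, 84 and 77 in TBI; it passed the count filter through its TBI counts, and its log2 fold change of 4.65 was 5.42 with control replicate 2 left out.

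**Figure D5:**
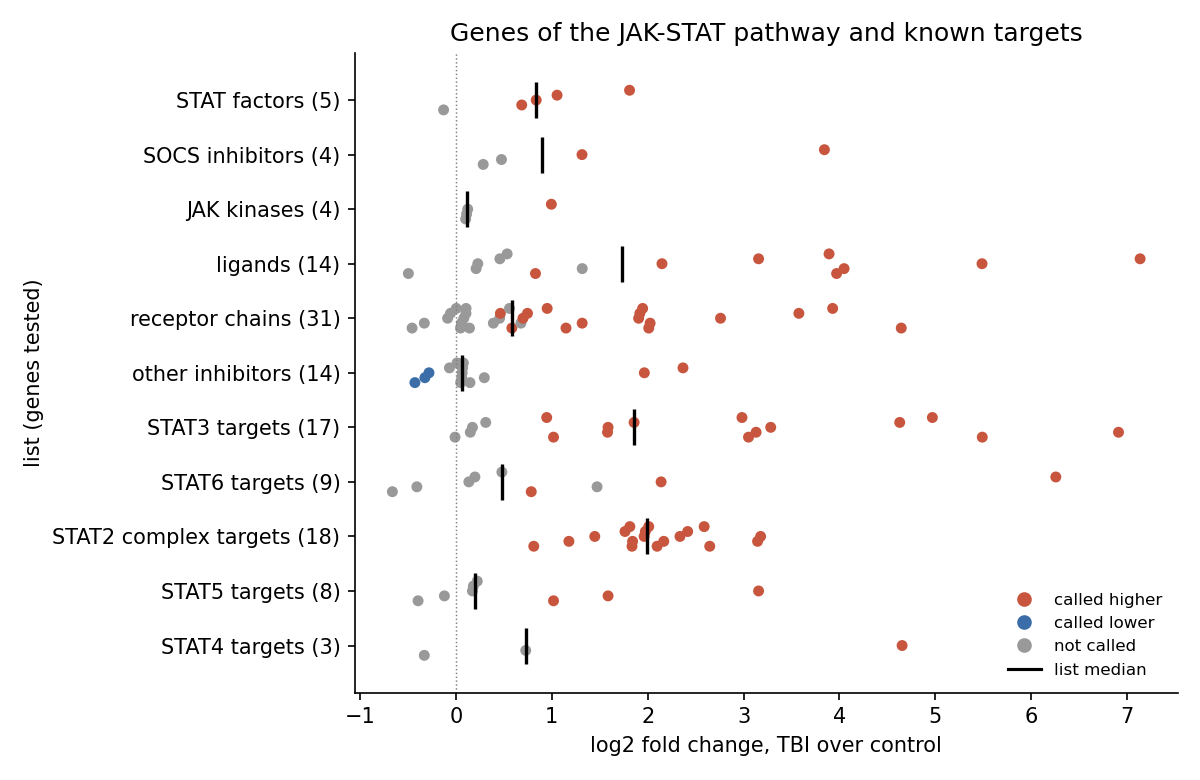
Fitted log2 fold change of each tested gene in the STAT and SOCS groups and in each pathway list, red where called higher, blue where called lower and grey where not called, with the list median as a bar. The 18 STAT2 complex targets are all red around a median of 1.99, and the JAK kinases sit near 0 except Jak3.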

How the data were processed

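The deposited data are a gene and a transcript table with a count and an RPKM value per library, per the file headers. The submitters' processing notes name TopHat2 and mm10; the sources used here do not name the counting tool, its strand setting or the annotation. The RPKM values the authors deposited divide those counts by row length and library total. Of counts from 1 to 20, 54.2% were even, as where both mates of a pair are counted, and rows overlap, so column totals overstate reads. A gene and an antisense partner are not treated as separable.

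Gene and transcript counts were tested with edgeR 4.0.16 in R 4.3.3 (glmQLFit and glmQLFTest), without a block. Rows had to pass filterByExpr at a count of 10 and a total of 15, libraries were scaled by TMM, and p-values were adjusted by Benjamini-Hochberg over all rows tested. Alternatives used DESeq2 1.42.0, limma 3.58.1 (voom, and log2(RPKM + 1)), other scalings and filters, halved counts, a replicate block and each library left out. Members and lists were chosen with earlier results of these data known. Named genes are all 9 members, up to 4 called genes of each pathway list with a mean RPKM of at least 1 in the higher group and the largest absolute log2 fold change, the 5 protein-coding genes most like Socs3 and the 5 most like Stat3, and transcripts of the members. Irf9, Nab2, Gfap, Cd3d, Cd3e, Cd3g, Cdh5, Pecam1 and Slco1c1 are named outside this rule, as a partner, a neighbour or markers, after their values were seen. Intervals cover counting error only.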

Additional observations from a re-analysis of the deposited data

How the results depend on the processing

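Socs3, Stat3, Stat2, Stat5a, Stat6 and Socs1 were called higher in each of 15 alternatives, with log2 fold changes of 3.05 to 3.98 for Socs3 and 1.73 to 1.86 for Stat3. The 9 genes gave 6 or 7 calls, the seventh being Socs2, which was called in 6 of the 15: without TBI replicate 3, with FANTOM3 rows left out (adjusted p = 0.0391), with halved counts (0.0454), with upper-quartile scaling (0.0492), with limma on log2(RPKM + 1) (0.0245) and with a replicate block (0.0466). Leaving out single libraries gave log2 fold changes of -0.24 to 0.079 for Stat4, which was above 0 only without control replicate 2, and 10 to 14 of the 16 transcripts were called. Counts of lower genes over the whole table, 3576 in the main fit, moved most. There were 2367 without FANTOM3 rows, where fewer rows are tested. Of the 16941 named rows tested the main fit called 1817 lower, so on named rows that setting gave more lower calls. There were 2148 with limma on log2(RPKM + 1), where 68.1% of calls were higher in place of 52.2%. With single libraries left out there were 2378 to 4064. The causes of these moves were not tested.

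Same-numbered control and TBI libraries deviated together only weakly (correlations 0.049 to 0.055, each library's highest with its own number), so the numbers were not taken as pairs. With the replicate block 8259 gene rows were called in place of 7476. The depth limits Socs1, Stat4, Stat5a and Cish most, with under 250 counts in every library.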

Other observations

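The genes whose pattern over the 6 libraries was most like that of Socs3 were sought among 10421 protein-coding genes with a mean of at least 2 RPKM in the higher group. The measure was the root mean square difference of log2 CPM, each gene taken relative to its own control mean, and it is a description with no test. The closest was Plaur, the urokinase receptor, at a difference of 0.16, at 0.313 ± 0.0259 RPKM in control and 4.57 ± 0.740 in TBI (± is the SD over 3 libraries). Next came Atf3, a stress-induced transcription factor (0.20), the gp130 cytokine Clcf1 (0.21), Tgfbi, a secreted matrix protein (0.22), and Ms4a6d, a membrane protein of myeloid cells (0.24). All 5 were chosen for their likeness to Socs3 over these libraries, so their agreement with it is set by that choice.

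The genes most like Stat3 were closer to it, at differences of 0.077 to 0.085. They were Hcls1, an adaptor of blood cells, Ecscr and Cd93, both known from endothelial cells, Bin2, known from leukocytes, and Igfbp3, a binding protein of insulin-like growth factors. Cd93 went from 2.09 ± 0.106 to 7.70 ± 0.743 RPKM and Igfbp3 from 4.46 ± 0.195 to 16.95 ± 1.78. The 7 endothelial markers listed split, with 2 higher (Cdh5 and Pecam1), 1 lower (Slco1c1) and 4 not called. Over named rows tested the shares were 15.4% higher and 10.7% lower.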
